A study of Mus musculus with 172 samples.

Results

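Cytochrome P450 enzymes of families 1 to 3 are the haem proteins with which liver cells oxidise drugs, plant compounds, steroids and unsaturated fatty acids. The genes described here are all symbols that begin with Cyp and 1, 2 or 3, go on with a subfamily letter and a digit, and appear in the liver tables of both conditions. This rule found 49 of the 14107 genes listed in liver, in 14 subfamilies, and 7 of the 49 are also listed in cortex. The largest subfamilies were Cyp2c with 14 genes, Cyp2d with 9 and Cyp3a with 7.

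The study measured how inherited differences shape the response to sleep loss. It used 33 BXD/RwwJ lines, which are inbred lines bred from crosses of C57BL/6J (B6) with DBA/2J (D2), together with both parental strains and their reciprocal F1 hybrids, labelled BD and DB. By their labels, BXD96, BXD97 and BXD103 are the sublines 48a, 65a and 73b. BXD48, BXD65 and BXD73 are among the 33 lines as well, and each subline counts as a line of its own. Male mice 11 to 14 weeks old were either kept awake by gentle handling for 6 h from light onset (SD) or left undisturbed (Ctr), and all were killed 6 h after light onset. RNA of mice of 1 line, tissue and condition was pooled into 1 library, so differences between single mice cannot be seen. Each condition has 39 pools per tissue in the comparisons: 33 of BXD/RwwJ lines, 2 of B6 (B61 and B62), 2 of D2 (DB1 and DB2) and 1 of each F1. The B6 and D2 pools labelled 1 were sampled at the start of the study and those labelled 2 at its end. Pools of 4 BXD/TyJ lines were left out of the comparisons. Reads counted on the listed genes, recovered from the deposited values and summed, came to 5034166 to 8269401 per liver library in Ctr (median 6752508) and to 4681101 to 8009362 in SD (median 6563242). This sum is called the library total here and leaves out all reads that did not fall on a listed gene, so it is not the sequencing depth. Levels are log2 CPM, read counts scaled to a common library total, and a gene without a read stands at -2.77 in a Ctr library of liver and at -2.75 in an SD library. Of the tissue markers, the hepatocyte gene Alb was at 8.77 to 9.56 log2 CPM in liver and is not listed in cortex, and the neuronal gene Snap25 is listed in cortex only. Others are listed in both tissues: Ttr reached 8.57 in a cortex library, above its highest liver value, Cps1 is listed in cortex at up to 0.00, and Syt1 (median 5.67), Rbfox3 and Nrgn are listed in liver.

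These enzymes sit in the endoplasmic reticulum and receive electrons from the reductase Por. Many of their genes are switched on by foreign compounds through receptors: the aryl hydrocarbon receptor (Ahr) acts on family 1, the constitutive androstane receptor (CAR, gene Nr1i3) on subfamily 2b, and the pregnane X receptor (PXR, gene Nr1i2) on subfamily 3a. In mice several members also differ strongly between the sexes, under the control of growth hormone pulses.

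The genes lie mostly in clusters of near copies. In the mm9 assembly, 13 Cyp2c genes lie on chromosome 19, 8 Cyp2d genes on chromosome 15, all 7 Cyp3a genes on chromosome 5 and the 4 Cyp2j genes on chromosome 4, while chromosome 7 carries 11 members from 7 subfamilies, among them the Cyp2a and Cyp2b genes. Near copies can share reads. Of the 100-base stretches of the transcripts of Cyp3a41a, 90.8% also occur in another gene, mostly Cyp3a41b. This share was 36.6% for Cyp2c40, 33.6% for Cyp2c69, 23.7% for Cyp2c67, 19.8% for Cyp2c68, 13.7% for Cyp2d10, 11.3% for Cyp2a4, 11.2% for Cyp2d11 and 10.2% for Cyp2d9. The values of these genes are uncertain for this reason, but the share does not give the size of the error. Cyp2c53-ps and Cyp2d13 had no single annotated gene, so no length is known for them.

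Levels between genes were compared as log2 reads per kilobase of exon, averaged over the liver pools. By this measure the highest member of each subfamily was Cyp2e1, which oxidises ethanol, at 10.37, then Cyp2d26 at 10.24, Cyp2f2, known for naphthalene, at 10.18, Cyp3a25 at 10.18, the arachidonic acid epoxygenase Cyp2j5 at 10.17, Cyp2a12 at 10.12, Cyp2c29 at 10.09 and Cyp1a2, which oxidises caffeine, at 9.94. The reads of these 8 genes hardly grow with the library total, so their order is uncertain; whether duplicate reads were removed is not stated. The remaining subfamilies stood far lower. Cyp2r1, a vitamin D 25-hydroxylase, was at 7.61, the fatty acid hydroxylase Cyp2u1 at 7.57, Cyp2g1, known from the olfactory mucosa, at 5.33, Cyp2b10, the standard target of CAR, at 5.08, Cyp2s1 at 2.29 and Cyp1b1 at 1.88. Cyp3a41a was the lowest of the 47 members with a known length, at 0.11.

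The most abundant members hardly gained reads in larger libraries. Across the 78 liver libraries used, 21 members had at least 0.5 reads per exonic base, a limit chosen after seeing the data and called dense here. The slope of log2 reads on the log2 library total ran from -0.12 to 0.55 in these 21 genes (median 0.17), where reads that grow in step with the total give 1. In the 26 members below this limit the median slope was 1.15. The 832 other dense genes of liver had a median slope of 0.37, and the 8117 other genes with at least 100 reads a median of 1.22. The values of dense members in log2 CPM therefore stand higher where a library is small. Of the 21 dense members, 19 were highest among the Ctr pools in the DB hybrid, the smallest Ctr library with 5034166 reads, and 15 were highest among the SD pools in BXD70, the smallest SD library with 4681101 reads.

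**Figure D1:**
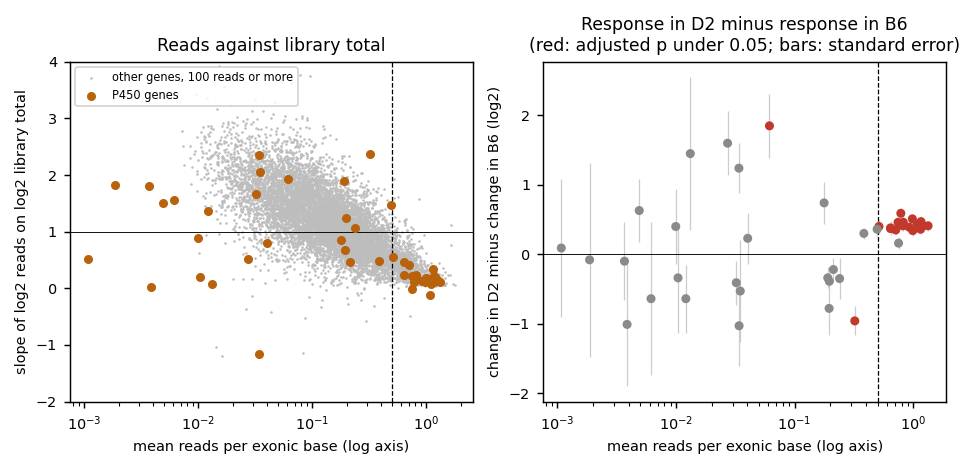
Left, slope of log2 reads on the log2 library total over the liver libraries against the mean reads per exonic base (log axis), for P450 genes (orange) and other genes with at least 100 reads (grey); the dashed line marks 0.5 reads per base. Right, the change after sleep deprivation in D2 minus that in B6 for each P450 gene with its standard error, where 20 of the 22 genes in red lie to the right of the dashed line.

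The change of a gene was tested with limma on SD against Ctr pools of liver, with Benjamini-Hochberg adjustment over all 14107 genes, and genes with an adjusted p under 0.05 count as changed. By this test 2 of the 49 members rose, where 21.5% of all genes did, and 8 fell, where 22.6% did. Together these are 10 members, 20.4%, against 44.2% of all genes. This fit does not use the pairing by line, and with the line as a block the shares were 51.0% of members and 53.9% of all genes, so the gap between them rests on the fit without pairing. The rises were those of Cyp2b10 and Cyp2c68, and the falls those of Cyp2j9, Cyp2j8, Cyp2g1, Cyp2u1, Cyp3a59, Cyp2r1, Cyp2d13 and Cyp3a25. The median log2 change was 0.023 over the members and -0.002 over all genes.

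**Figure D2:**
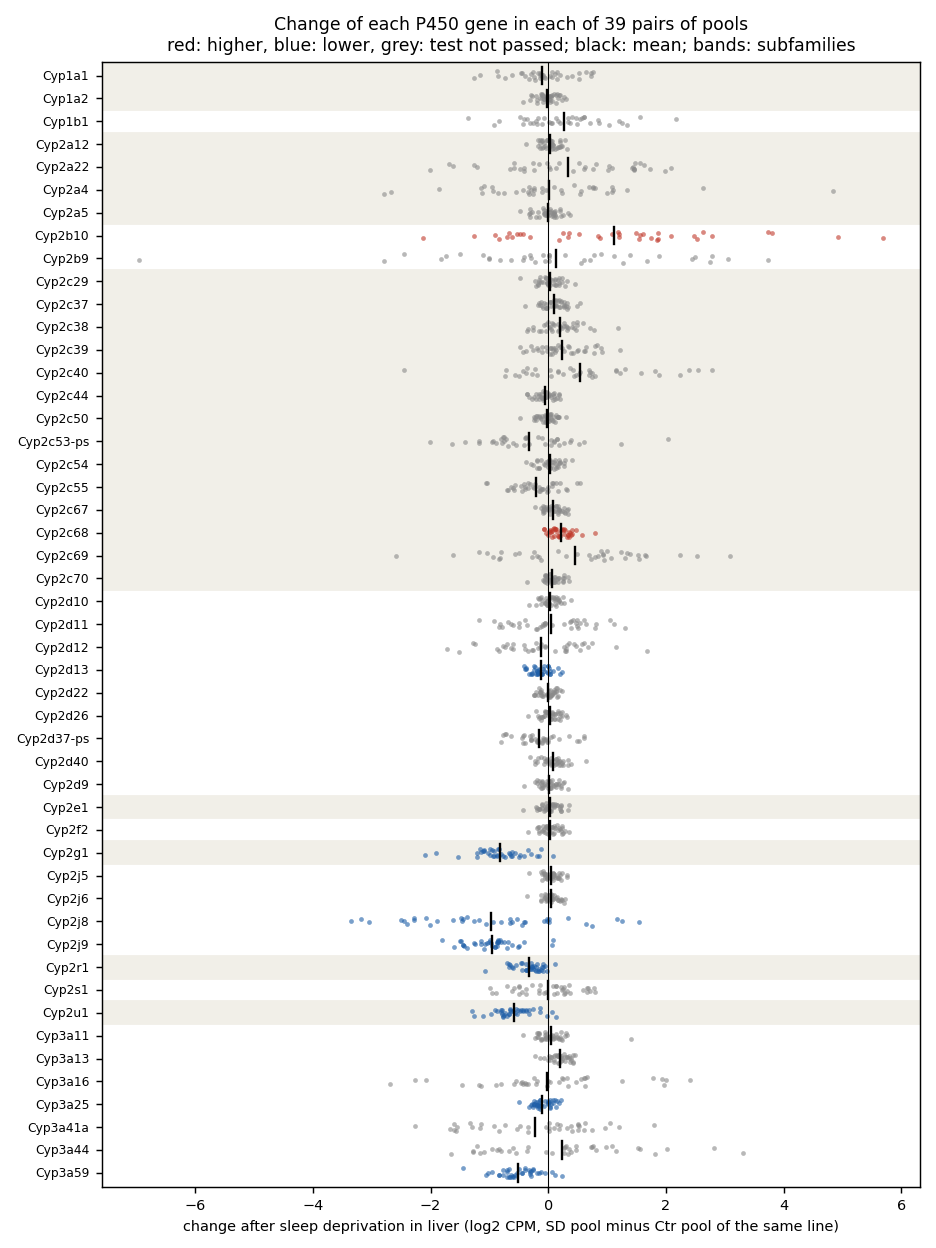
Change in log2 CPM from the Ctr to the SD liver pool of the same line for each of the 49 genes (39 points a gene, mean in black), in bands by subfamily, with genes that rose in red and genes that fell in blue. The points of Cyp2j9, Cyp2g1, Cyp2u1 and Cyp2r1 lie almost all below 0, whereas those of Cyp2b10 spread from -2.12 to 5.70.

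Cyp2b10 had the largest change. In Ctr pools it ranged from -2.77 (BXD101, without a read) over a median of 2.36 to 4.32 log2 CPM (BXD90), and in SD pools from -0.91 over 3.37 to 6.07 in the same lines. The ranges overlapped widely, and the line that was lowest and the line that was highest kept their places. For the lowest, BXD101, fewer mice were pooled than for most lines. The mean was 2.16-fold higher after SD (log2 change 1.11, standard error 0.37, adjusted p = 0.00919, limma, higher in 28 of 39 pairs). Pairs went both ways, from a value 2.12 lower in BXD67 (change -2.12) to one 5.70 higher in BXD95. Without BXD95 the log2 change was 0.96 (adjusted p = 0.0209, limma).

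Cyp2c68 lay at 6.29 to 7.49 log2 CPM in Ctr pools (median 6.99) and at 6.55 to 7.60 in SD pools (median 7.19). The shift was small against the spread between lines but in 1 direction nearly throughout: 35 of 39 pairs were higher (log2 change 0.21, standard error 0.070, adjusted p = 0.0106, limma).

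Of the 8 falls, that of Cyp2j9 had the smallest adjusted p. This neighbour of Cyp2j5 on chromosome 4, known as a hydroxylase of arachidonic acid, ranged from 3.34 to 5.00 log2 CPM in Ctr pools (median 4.34) and from 2.60 to 4.01 in SD pools (median 3.43). Most SD pools lay below most Ctr pools, and 37 of 39 pairs were lower, all but BXD50 and the DB hybrid. The level after SD was 0.513-fold that of Ctr (log2 change -0.96, standard error 0.073, adjusted p = 1.0e-19, limma). Cyp2j8 of the same cluster also fell (log2 change -0.98, standard error 0.21, adjusted p = 6.9e-05, limma, lower in 31 of 39 pairs). The size ran from -1.19 to -0.46 over the alternatives, with the smallest at a prior count of 5. It rests on a mean of 2.82 reads a library, with no read in 4 Ctr and 11 SD libraries. Cyp2j6, which lies between Cyp2j8 and Cyp2j9, and Cyp2j5 did not pass the test.

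Cyp2g1 ranged from 2.66 to 4.45 log2 CPM in Ctr pools (median 3.76) and from 1.48 to 4.37 in SD pools (median 3.09). The ranges overlapped, but 38 of 39 pairs were lower after SD, all but BXD50, and the log2 change was -0.83 (standard error 0.13, adjusted p = 8.4e-08, limma). Cyp2u1 stood at 5.49 to 6.74 log2 CPM in Ctr pools (median 6.34) and at 4.83 to 6.31 in SD pools (median 5.74). It was lower in 37 of 39 pairs, with a log2 change of -0.59 (standard error 0.074, adjusted p = 1.9e-10, limma). The exceptions were BXD51, which had the lowest Ctr value, and BXD89.

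Cyp3a59 ranged from 4.22 (BXD81) to 7.30 log2 CPM (BXD71) in Ctr pools (median 5.77) and from 3.82 to 7.10 in SD pools (median 5.19). Lines differed far more than conditions, and within lines 36 of 39 pairs were lower (log2 change -0.51, standard error 0.19, adjusted p = 0.0260, limma). Cyp2r1 was lower in 38 of 39 pairs, all but BXD70, with a log2 change of -0.33 (standard error 0.071, adjusted p = 7.3e-05, limma). The smallest falls were those of Cyp2d13 (-0.13, standard error 0.033, adjusted p = 6.0e-04, limma, lower in 31 of 39 pairs) and Cyp3a25 (-0.10, standard error 0.038, adjusted p = 0.0269, limma, lower in 26 of 39). With each library centred on its median, Cyp3a25 no longer passed (-0.09, adjusted p = 0.0815, limma; range over its alternatives 2.2e-06 to 0.0815). In bulk tissue, fewer cells that express a gene and less of its RNA per cell cannot be told apart.

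**Figure D3:**
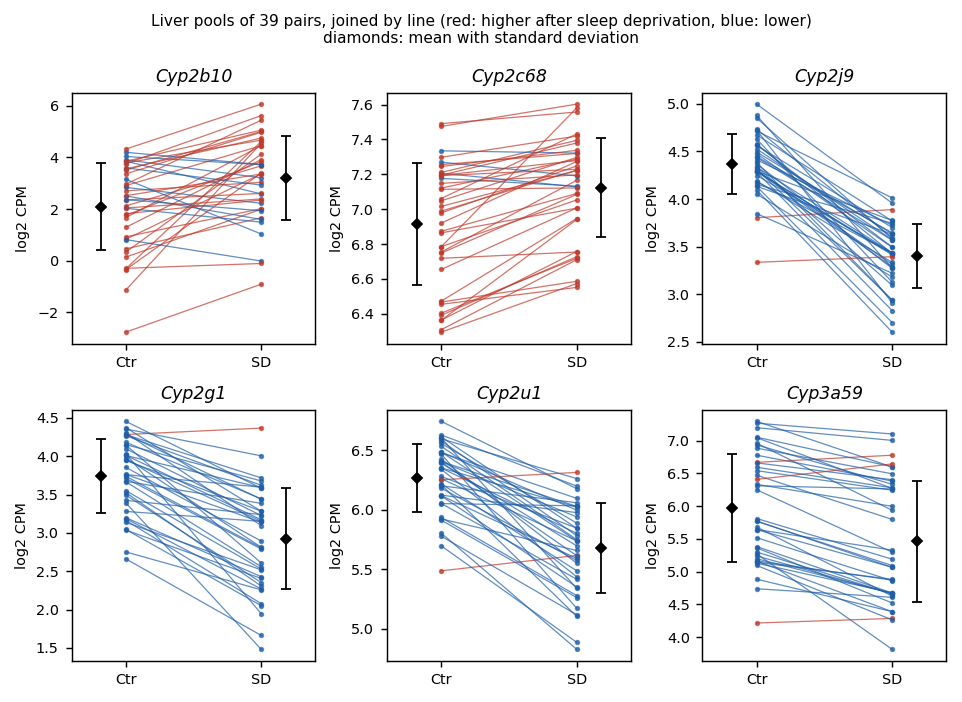
Log2 CPM of 6 genes in the Ctr and SD liver pools of 39 pairs, each pair joined by a line that is red where the SD pool is higher and blue where it is lower, with means and standard deviations as diamonds. Pairs of Cyp2b10 rise in 28 of 39 cases with crossing lines, and pairs of Cyp2j9, Cyp2g1, Cyp2u1 and Cyp3a59 nearly all slope down.

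Many members differ so much between lines that a smaller response shows only within lines. With the line as a block in the same limma fit, 25 members changed (53.9% of all genes did), 13 of them up (26.0% of all genes) and 12 down (27.9%). All 10 changes of the fit without the block were among the 25. Of the 15 others, Cyp3a13 had the smallest adjusted p: its log2 change of 0.19 had an adjusted p of 1.1e-08 with the block and 0.229 without it, and 35 of 39 pairs were higher. Of the 14 Cyp2c genes 8 were then up and 3 down. Cyp2c38 was higher after SD by 0.20 on the log2 scale in the mean (29 of 39 pairs, adjusted p = 5.5e-04 with the block and 0.0829 without it, limma). Cyp2c39 was higher by 0.23 (28 of 39, 0.00177 and 0.707), Cyp2c40 by 0.54 (28 of 39, 0.00315 and 0.211) and Cyp2c69 by 0.45 (24 of 39, 0.0323 and 0.384). Cyp2c55 changed by -0.21 (lower in 29 of 39, 0.00136 and 0.135), Cyp2c53-ps by -0.32 (25 of 39, 0.0173 and 0.238) and Cyp2c44 by -0.06 (27 of 39, 0.0308 and 0.762).

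The other members called with the block alone had log2 changes of at most 0.26 in size. Cyp1b1, which hydroxylates oestrogens, was at 0.26 (25 of 39 pairs higher, adjusted p = 0.0459 with the block and 0.173 without it, limma), and Cyp2d37-ps at -0.16 (31 of 39 lower, 0.0141 and 0.119). The dense genes Cyp2c37, Cyp2c67, Cyp2c70, Cyp2d40 and Cyp2j5 had changes of 0.05 to 0.10. With the log2 library total as a covariate, added after seeing the data, 6 members rose and 9 fell in the fit without a block; Cyp2c67, Cyp2c70, Cyp2d40 and Cyp2j5 joined the rises and Cyp1a2 (-0.04, adjusted p = 0.0436, limma) the falls. The number of rises also depended on single lines: it was 5 without the DB hybrid, 4 without BXD75 and 4 without B61, against 2 with all pools.

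Several well-known drug-metabolising members did not pass the test. Cyp1a2 lay at 7.82 to 8.60 log2 CPM in Ctr pools (median 8.13) and at 7.72 to 8.51 in SD pools (median 8.10), and 19 of 39 pairs were higher. Cyp2e1 lay at 8.18 to 8.97 in Ctr pools (median 8.48) and at 8.22 to 8.93 in SD pools (median 8.52), with 21 of 39 pairs higher. Cyp3a11 lay at 6.96 to 9.08 in Ctr pools (median 8.54) and at 8.07 to 9.04 in SD pools (median 8.60), also with 21 of 39 higher. For each of these 3 genes the ranges of Ctr and SD pools nearly coincided, except that BXD81 stood apart at the bottom of Cyp3a11 in Ctr. Cyp1a1, Cyp2a12, Cyp2c29, Cyp2d26, Cyp2f2 and Cyp2s1 had log2 changes between -0.10 and 0.04 that did not pass the test either. All these genes but Cyp1a1 and Cyp2s1 are dense, and the reads of the dense ones hardly move with the library total. A change in them may therefore be compressed, and a missed threshold does not show that they stayed the same. In the fit without a block 2 of the 21 dense members changed (9.52%), where 161 of 832 other dense genes did (19.4%). With the line as a block the order turned, with 8 of 21 (38.1%) against 246 of 832 (29.6%).

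Promoters of the members with the largest rise, Cyp2b10, and of Cyp2j9 are shown because these genes moved in opposite directions. The sequences are the 250 bases before the start of the gene in RefSeq (GRCm38.p6), read 5′ to 3′ on the strand of the gene, on chr7:25897408-25897657 (+) for Cyp2b10 and chr4:96591486-96591735 (-) for Cyp2j9. Capitals mark GCGTG, the core bound by the Ahr complex, on either strand.
Cyp2b10: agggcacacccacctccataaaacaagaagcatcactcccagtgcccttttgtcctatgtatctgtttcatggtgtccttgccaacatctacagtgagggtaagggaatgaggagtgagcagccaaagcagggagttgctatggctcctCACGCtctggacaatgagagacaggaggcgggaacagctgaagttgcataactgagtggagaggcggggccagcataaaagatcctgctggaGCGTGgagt
Cyp2j9: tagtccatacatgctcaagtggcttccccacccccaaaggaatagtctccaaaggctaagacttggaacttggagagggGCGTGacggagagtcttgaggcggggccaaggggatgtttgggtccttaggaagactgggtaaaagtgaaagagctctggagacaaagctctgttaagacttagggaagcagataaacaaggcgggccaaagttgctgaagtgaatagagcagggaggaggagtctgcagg
A promoter was found for 40 of the 49 members. The letters GCGTG occur in 5 of these 40, namely Cyp1a1, Cyp1b1, Cyp2b10, Cyp2c68 and Cyp2j9, and in 28.2% of all 32851 promoters. The glucocorticoid receptor half-site TGTTCT occurs in 10 of the 40 and in 16.1% of all promoters, and the nuclear receptor half-sites AGTTCA in 6 (11.8%) and AGGTCA in 10 (14.0%). Both strands were searched in each case. A match is a description and not a site.

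Genes that serve the P450 enzymes were read in the same fit, in which 21.5% of all genes rose and 22.6% fell. Of 19 listed receptors and liver transcription factors, 7 rose and 1 fell. Cebpb rose by 0.34 on the log2 scale (standard error 0.056, adjusted p = 3.4e-07, limma, higher in 36 of 39 pairs), Rxrb, a partner of PXR and CAR, by 0.30 (38 of 39) and Nr1i2, which encodes PXR, by 0.15 (33 of 39). Nfe2l2 had a log2 change of -0.10 (lower in 31 of 39, adjusted p = 0.00271, limma). Nr1i3, which encodes CAR, had a log2 change of -0.09 and Ahr one of -0.13, and neither passed (adjusted p = 0.224 and 0.110, limma); both did with the line as a block (0.0210 and 0.0340).

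Of 15 listed genes that supply electrons or haem, 2 rose and 3 fell, where 21.5% of all genes rose and 22.6% fell. Alas1, the first enzyme of haem synthesis, rose by 0.25 (standard error 0.073, adjusted p = 0.00264, limma, higher in 31 of 39 pairs), and Por, the reductase, by 0.19 (standard error 0.044, adjusted p = 1.8e-04, limma, 35 of 39). Ppox had a log2 change of -0.28 (lower in 34 of 39), Uros one of -0.13 (26 of 39) and Cyb5b one of -0.10 (31 of 39). Of 10 genes of the growth hormone axis, 4 rose and 1 fell: Socs2 rose by 1.11 (standard error 0.12, adjusted p = 2.1e-13, limma, higher in 37 of 39), Onecut1 by 0.65 (33 of 39) and Bcl6 by 0.46 (26 of 39), and Stat5b had a log2 change of -0.09 (lower in 29 of 39). Among other enzymes of the first phase of drug metabolism, 2 of 9 rose and 1 fell. Fmo2 rose by 0.78 (standard error 0.26, adjusted p = 0.0103, limma, higher in 37 of 39), and Fmo4 had a log2 change of -0.52 (lower in 35 of 39). Of 3 other targets of Ahr, Nqo1 fell, with a log2 change of -0.38 (standard error 0.085, adjusted p = 1.2e-04, limma, lower in 35 of 39).

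Markers of the cells in liver were read in the same fit, where 21.5% of all genes rose and 22.6% fell. None of the 8 hepatocyte genes passed the test in limma (Tat did with the line as a block), and their summed level was 3920 to 6550 CPM in Ctr pools (median 4730) and 4180 to 5730 in SD pools (median 4910), with the highest CPM in Apob. Of 10 genes of pericentral hepatocytes, the cells richest in many P450 enzymes, 3 fell (Lgr5 with a log2 change of -0.55, Rnf43 with -0.28 and Lect2 with -0.09), at a summed median of 1730 CPM in both conditions, with the highest CPM in Slc1a2. Of 10 periportal genes, Pck1 rose by 0.14 and 2 fell (Cdh1 with -0.36 and Hal with -0.19). Their sum had a median of 2720 CPM in Ctr and 2740 in SD pools. The highest mean log2 CPM was that of Hal in Ctr pools (8.78, Pck1 8.72) and that of Pck1 in SD pools (8.86, Hal 8.59). All 5 B cell genes fell (median log2 change -1.62), from a summed median of 14.3 CPM (range 7.32 to 29.0) to 5.81 (range 2.60 to 13.9), with the highest CPM in Cd79b. Their part in the changes of P450 genes was not tested.

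Among the other markers, 3 of 5 endothelial genes rose (Lyve1 by 0.84, Pecam1 by 0.25 and Clec4g by 0.17) and Kdr fell (-0.16), in a sum with a median of 366 CPM in Ctr and 371 in SD pools, where Stab2 had the highest CPM. Of 5 genes of stellate cells Des rose by 0.26 and Lrat fell (-0.20), with summed medians of 431 and 427 CPM and the highest in Dcn. Of 5 bile duct genes Sox9 fell (-0.41), with summed medians of 118 and 102 CPM and the highest in Spp1. Of 6 neuronal genes Snap25, Slc17a7 and Gad1 are not listed in liver, and Syt1, the one with the highest CPM of the others, fell (-0.82), with summed medians of 68.9 and 39.1 CPM. No change passed the test without a block (with the line as a block, 3 Kupffer cell and 2 T cell genes did) among 5 listed Kupffer cell genes, 5 T cell genes, the 1 listed erythroid gene, Alas2, and the 1 listed gene of the exocrine pancreas, Cela2a.

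The parental strains differed in many of these genes. D2 and B6 liver pools were compared with limma over all genes, with strain and condition as terms, on 4 pools a strain. D2 was higher in 14 members, where it was in 8.42% of all genes, and lower in 10, where it was in 9.47%. Of these 24 members, 9 are Cyp2c genes. With 2 pools of a strain in each condition, an exact test within a condition could not reach 0.05, so the calls rest on the spread that limma takes over all genes. Reads of all pools were aligned to the reference, which is B6. Whether reads of D2 alleles were lost in this step was not tested, for the strains or for the lines.

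The largest differences were in a pair of neighbours on chromosome 19. In B6, Cyp2c40 was at 5.24 and 4.83 log2 CPM in the Ctr pools and at 5.67 and 5.63 in the SD pools, and in D2 at -1.74 and -1.22 in the Ctr pools and at 0.66 and 1.33 in the SD pools. All B6 pools lay far above all D2 pools, in which 1 to 13 reads were counted against 185 to 386 in B6. D2 minus B6 was -5.58 on the log2 scale (standard error 0.34, adjusted p = 8.0e-08, limma), and smaller in size with a prior count of 5 (range over its alternatives -6.51 to -4.65). Cyp2c69 was at 4.32 and 3.40 log2 CPM in the Ctr pools of B6 and at 5.28 and 5.05 in the SD pools, and in D2 at -0.39, -1.22, -0.55 and -0.52 in the same order. Again the strains did not overlap, with 68 to 294 reads in B6 and 2 to 4 in D2 (D2 minus B6 -5.18, standard error 0.32, adjusted p = 8.3e-08, limma, and -4.26 with a prior count of 5). The F1 pools in Ctr lay between the parents, at 3.06 (BD) and 1.93 (DB) for Cyp2c40 and at 1.60 and 1.56 for Cyp2c69. Of the stretches of 100 bases in the transcripts of either gene about 1 in 3 occur in another gene, so a read may be counted for the wrong copy or dropped. A true difference in RNA and a loss of D2 reads in the alignment to B6 cannot be told apart here.

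The upstream sequences of both genes are printed because the genes share their strain difference. Cyp2c40 is shown from chr19:39812815-39813064 (-) and Cyp2c69 from chr19:39886770-39887019 (-), 250 bases each before the start of the gene in RefSeq (GRCm38.p6), read 5′ to 3′ on the strand of the gene. Capitals mark AGTTCA.
Cyp2c40: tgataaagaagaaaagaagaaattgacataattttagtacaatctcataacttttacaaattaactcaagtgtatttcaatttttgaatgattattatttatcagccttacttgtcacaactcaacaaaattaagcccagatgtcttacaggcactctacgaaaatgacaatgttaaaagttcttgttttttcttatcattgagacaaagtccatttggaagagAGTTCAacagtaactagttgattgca
Cyp2c69: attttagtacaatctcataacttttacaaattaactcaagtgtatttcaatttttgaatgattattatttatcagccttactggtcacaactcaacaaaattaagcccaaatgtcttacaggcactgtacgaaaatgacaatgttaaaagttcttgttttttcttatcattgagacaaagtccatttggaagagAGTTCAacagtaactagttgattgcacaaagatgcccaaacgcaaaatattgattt
Shifted by 30 bases against each other, the sequences overlap over 220 bases, of which 217 (98.6%) are the same. They come from the reference, which is B6, and say nothing of the D2 sequence.

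Cyp2c39 showed the opposite difference in the same cluster. It was at 2.59 and 2.78 log2 CPM in the Ctr pools of B6 and at 3.22 and 4.00 in the SD pools, against 6.71, 6.10, 6.82 and 6.26 in D2. D2 pools were all higher, with no overlap (log2 difference 3.32, standard error 0.21, adjusted p = 9.9e-08, limma), and both F1 pools in Ctr, at 6.05 and 6.82, stood with D2. Cyp3a44 was at -0.44 and -2.77 log2 CPM in the Ctr pools of B6, without a read in B62, and at 0.55 and -1.24 in the SD pools, against 1.20, 1.58, 1.67 and 2.34 in D2. No D2 pool lay below a B6 pool, although the difference of 2.67 (standard error 0.54, adjusted p = 0.00324, limma) rests on at most 27 reads and was 1.69 with a prior count of 5. Over its alternatives, which include leaving out single parental pools, the difference ran from 1.64 to 3.7. Cyp2b10 was at 2.36 and 2.04 log2 CPM in the Ctr pools of B6 and at 1.93 and 2.39 in the SD pools, and at 3.85, 3.56, 5.06 and 4.75 in D2. All D2 pools were higher, 4.35-fold in the mean (log2 difference 2.12, standard error 0.25, adjusted p = 3.7e-05, limma).

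The other differences of more than 1 on the log2 scale were spread over subfamilies. Higher in D2 were Cyp2d12 (2.03, range over its alternatives 1.23 to 2.83), Cyp2a4, a steroid hydroxylase (1.78), Cyp2c53-ps (1.62), Cyp2c55 (1.43) and Cyp2g1 (1.33). Lower in D2 were Cyp2a22 (-1.62), Cyp3a13 (-1.08), Cyp3a59 (-1.05) and Cyp2c44, an epoxygenase (-1.02). None of these 9 genes had overlapping pools of the strains. Smaller differences that passed were those of Cyp1b1 (-0.91), Cyp2u1 (-0.86), Cyp2c68 (-0.62) and Cyp2r1 (-0.60). The calls of Cyp2a22 and Cyp1b1 were lost without any 1 of the 4 parental pools (adjusted p up to 0.164 and 0.313 over the alternatives, limma), and that of Cyp2a4 without DB1 and in SD pools alone (0.0867 and 0.0716; range over its alternatives 0.00217 to 0.0867).

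The last 6 members called higher in D2 are dense: Cyp2a12, Cyp2a5, Cyp2c29, Cyp2c67, Cyp2d40 and Cyp3a25, by 0.25 to 0.40 on the log2 scale. In SD pools alone all 6 passed in limma, and in Ctr pools alone their adjusted p ran from 0.200 (Cyp2d40) to 0.723 (Cyp2c29). The SD libraries of D2 were the smaller ones, with 5785013 and 5690812 reads against 7491781 and 7250062 in B6, while the Ctr libraries held 6547019 and 6848193 reads in D2 and 6732104 and 6584349 in B6. Over both conditions the number of members higher in D2 was 9 with the library total as a covariate and 8 without DB1.

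**Figure D4:**
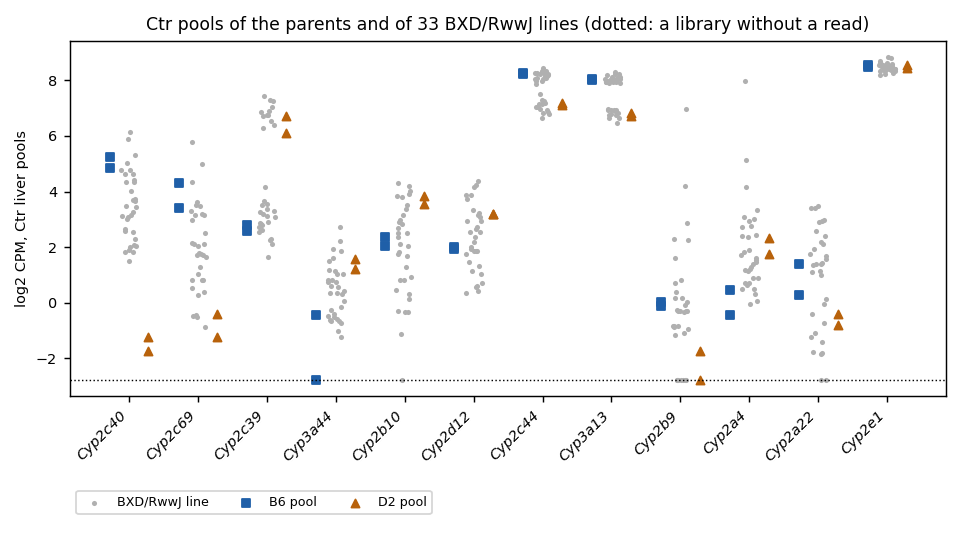
Log2 CPM in Ctr liver pools of 2 B6 pools (blue squares), 2 D2 pools (orange triangles) and 33 BXD/RwwJ lines (grey) for 12 genes, with the value of a library without a read as a dotted line. By line means over both conditions, Cyp2c39, Cyp2c44 and Cyp3a13 fall into separate bands. The Ctr pools of B6 and D2 stand at opposite bands, except for 1 D2 pool of Cyp2c39 (6.10) between them. Cyp2e1 varies little here, but it is a dense gene whose spread may be compressed.

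Whether the parents respond differently to sleep loss was asked by the interaction of strain and condition in the same limma fit. It passed for 22 members, where 7.19% of all genes passed. Of these, 20 are dense, and in all 20 the value was higher in D2 than in B6 in its change, by 0.34 to 0.59 on the log2 scale. Cyp1a2 changed by -0.28 and -0.29 in the B6 pairs and by 0.18 and 0.27 in the D2 pairs (difference 0.51, standard error 0.069, adjusted p = 0.0189, limma). Cyp2a5, a coumarin hydroxylase, changed by -0.32 and -0.30 in B6 and by 0.21 and 0.34 in D2 (difference 0.59, standard error 0.075, adjusted p = 0.0145, limma), and Cyp2e1 by -0.15 and -0.14 in B6 and by 0.20 and 0.33 in D2 (difference 0.41, standard error 0.076, adjusted p = 0.0191, limma). Over the 20 genes the changes ran from -0.32 to 0.09 in B6 pairs and from 0.09 to 0.58 in D2 pairs.

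Library size moved with this difference. The log2 total changed by 0.15 in B6 and by -0.22 in D2, a difference of -0.37. The 832 other dense genes had a median difference of 0.32, and 446 of them (53.6%) passed, whereas the 8117 other genes with at least 100 reads had a median of 0.01, and 5.95% of them passed. With the library total as a covariate no member and no gene passed in limma, with 2 members and 893 genes at an unadjusted p under 0.05. Strain responses and the library total cannot be told apart in 8 libraries. The count was also 0 without a variance trend (28 members and 2894 genes at an unadjusted p under 0.05) and without any 1 of B61, B62, DB1 or DB2 (27 to 28 members), which leaves 1 pool for a strain and condition. Voom on the recovered reads gave 21 members.

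The 2 members called outside the dense group went in opposite directions. Cyp2c40 was higher after SD by 2.39 and 2.55 in the D2 pairs and by 0.43 and 0.80 in the B6 pairs (difference 1.85, standard error 0.46, adjusted p = 0.0377, limma). This rests on 1 to 13 reads in D2, and with a prior count of 5 the difference was 0.83 (adjusted p = 0.192, limma; range over its alternatives 0.0220 to 0.821). Cyp2d37-ps changed by 0.49 and -0.11 in B6 and by -0.73 and -0.80 in D2 (difference -0.96, standard error 0.21, adjusted p = 0.0243, limma). Its slope on the library total was 2.37, against a median of 0.17 in the dense members.

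Lines were compared over the 66 pools of the 33 BXD/RwwJ lines, with the Ctr and SD pools of a line as its repeats. The moderated F test of limma called a line effect in 42 of the 49 members, where it did so in 59.0% of all genes. Among dense genes it was called in 20 of the 21 members and in 791 of the 832 others. With the library total as a covariate, 39 members were called, and Cyp2d26, Cyp2d9 and Cyp3a11 no longer passed (adjusted p = 0.447, 0.0552 and 0.117, limma F). In Ctr pools the standard deviation between lines had a median of 0.35 log2 CPM over the members and of 0.20 over all genes. The share of variance that lay between lines had a median of 0.658 in members and of 0.367 in all genes. Not called were Cyp1a1, Cyp2d40, Cyp2j8, Cyp2j9, Cyp2s1, Cyp3a16 and Cyp3a41a. By subfamily the median standard deviation ran from 0.14 in the 9 Cyp2d genes and 0.15 for Cyp2e1 over 0.40 in the 14 Cyp2c and 0.75 in the 7 Cyp3a genes to 1.94 in the 2 Cyp2b genes. Cyp2e1 and 5 of the Cyp2d genes are dense, so their spread may be compressed. At the other end, Cyp2b9 had no read in 9 Ctr libraries, where log2 values spread widely. Whether read density sets this order was not tested.

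In 3 genes the lines fell into separate bands by their means over the Ctr and SD pools. The line means of Cyp2c39 left a gap of 2.54 log2 CPM between 21 lines at or below 3.98 and 12 lines at or above 6.53, and 0.980 of its variance lay between lines (adjusted p = 7.4e-26, limma F). Set against these bands by Ctr values alone, both B6 pools stood in the lower one. The D2 pool DB1 stood in the upper one and DB2, at 6.10, between the bands but near the upper one. Over both conditions the mean was 3.15 in B6 and 6.47 in D2, which is just below the upper band. Cyp3a13 left a gap of 0.77 between 13 lines at or below 7.14 and 20 at or above 7.91 (share 0.971, adjusted p = 1.1e-22, limma F), and Cyp2c44 a gap of 0.51 between 14 lines at or below 7.42 and 19 at or above 7.93 (share 0.977, adjusted p = 3.5e-24, limma F). For both, B6 stood in the upper band and D2 in the lower one in Ctr, and the F1 pools stood nearer to B6, at 7.71 and 8.09 for Cyp3a13 and at 7.99 and 8.27 for Cyp2c44. The alleles of the lines at these genes are not in the files, so none of this was tied to a genotype. Cyp2c40 and Cyp2c69, which differ most between the parents, formed no such bands: no line mean lay below both parents in either gene, and 30 and 31 of the 33 lines lay between them.

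The 5 members with the widest spread between lines in Ctr were Cyp2b9, Cyp2c39, Cyp2a22, Cyp2b10 and Cyp2a4. Cyp2b9 ranged from -2.77, without a read, over a median of -0.30 to 6.98 log2 CPM (standard deviation 2.16), and 9 of the 39 Ctr libraries held no read of it. Cyp2a22 ranged from -2.77 over 1.38 to 3.49 (standard deviation 1.87), with B6 pools at 1.41 and 0.28 and D2 pools at -0.39 and -0.81. Cyp2a4 ranged from -0.04 over 1.54 to 7.99 (standard deviation 1.61). In Cyp2b10 (standard deviation 1.73) 1 line mean, that of BXD101, a line with fewer mice pooled, lay 1.64 below the other 32. Without BXD101 the share of variance of Cyp2b10 between lines fell from 0.441 to 0.293 (adjusted p = 0.0256, limma F, range over its alternatives 3.7e-04 to 0.0256).

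BXD71 held the top of Cyp2b9 and Cyp2a4, and both are known as female-predominant in mouse liver. Its Ctr pool had 865 reads of Cyp2b9 (6.98 log2 CPM, next BXD96 at 4.21) and 1737 reads of Cyp2a4 (7.99, next BXD103 at 5.15). In its SD pool the genes stood at 5.48 and 5.20. Of the other listed female-predominant members, Cyp2c69 was at 4.33 in this Ctr pool (rank 3 of 39), Cyp2c40 at 4.63, Cyp3a44 at 1.13, Cyp3a16 at 0.03 and Cyp3a41a at -1.19, all within the range of the other lines. Cux2, a female-predominant transcription factor of the growth hormone axis, was highest in the same pool, at 2.58 (next BXD81 at 1.37). In the SD pool of BXD71 Cux2 stood at -0.41 (rank 18 of 39), and Cyp2a4 was higher in BXD73 (6.04) than in BXD71. The methods give male mice, and whether this Ctr pool holds RNA of males alone was not tested. Without BXD71 the share of variance of Cyp2b9 that lay between lines fell from 0.542 to 0.368 (adjusted p = 0.0101, limma F; range over its alternatives 1.1e-06 to 0.0101). None of the 7 listed female-predominant members changed after SD without the block, and neither did Cyp2d9, the male-predominant steroid hydroxylase, at a median of 8.13 log2 CPM in Ctr and 8.12 in SD pools. The lowest change of Cyp2b9 was that of BXD96, with 4.21 in Ctr and no read in SD.

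BXD81 stood at the other end in several clusters. Its Ctr pool was the lowest of all 39 in 13 members, 9 of them dense, and its library total of 7478167 reads is among the larger ones, where dense genes stand lower. The 13 include Cyp3a11 (6.96 against a median of 8.54), Cyp2c29 (7.45 against 8.28), Cyp2c37 (6.62 against 7.63), Cyp2c38 (5.58 against 6.55), Cyp2c55 (4.41 against 5.74) and Cyp3a59 (4.22 against 5.77). Cyp3a11 was 1.41 higher in the SD pool of this line, the largest rise of that gene. These genes were singled out after their values were seen.

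Members reported as targets of CAR, PXR or Ahr were asked whether their responses follow that of Cyp2b10 across the 33 lines. No relation passed over the 6 computed, and none had an unadjusted p under 0.05 (two-sided permutation tests of 100000 resamples, Benjamini-Hochberg adjusted). The change of Cyp3a11 gave Pearson's r of 0.288 (p = 0.104, adjusted p = 0.263, permutation, n = 33) and Spearman's rho of 0.290 (p = 0.101, adjusted 0.304, permutation), and r was 0.395 without the 2 lines farthest from the median, BXD95 and BXD61. Cyp2a5 had the largest rho, 0.314 (p = 0.0754, adjusted 0.304, permutation). For Cyp2b9, Cyp2a5, Cyp2c29, Cyp2c55 and Cyp1a2 r was 0.269, 0.268, 0.173, 0.104 and 0.0614 (adjusted p = 0.263, 0.263, 0.501, 0.680 and 0.733, permutation, n = 33), and without BXD95 and BXD61 it was 0.129, 0.408, 0.275, 0.298 and 0.117. The same changes were also related to the change of the log2 library total, which is in the denominator of CPM (7 relations, chosen after seeing the data). The dense genes Cyp1a2, Cyp2c29, Cyp2a5 and Cyp3a11 were higher where the total had dropped, with r of -0.928, -0.831, -0.706 and -0.489 (rho -0.917, -0.918, -0.755 and -0.896, adjusted p = 3.5e-05, 3.5e-05, 4.7e-05 and 0.00733, permutation, n = 33). Without the lines farthest on this axis, BXD70 and BXD45, r was -0.901, -0.784, -0.678 and -0.464. The relation of Cyp2b10 itself to the total did not pass (r -0.021, rho -0.139, adjusted p = 0.931, permutation, n = 33).

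Cortex offered a comparison for the 7 members listed there. With the same limma test on 39 SD and 39 Ctr pools of cortex, 4 of the 7 changed, where 68.4% of the 14896 genes listed in cortex did. Cyp3a13 was at 0.00 to 1.25 log2 CPM in Ctr pools of cortex (median 0.60) and at -1.17 to 0.57 in SD pools (median -0.18). It was lower in 38 of 39 pairs (log2 change -0.85, standard error 0.088, adjusted p = 2.8e-14, limma). Cyp2j9 was at 3.93 to 4.61 log2 CPM in Ctr pools (median 4.26) and at 4.02 to 4.91 in SD pools (median 4.52), and 36 of 39 pairs were higher (log2 change 0.29, standard error 0.038, adjusted p = 1.0e-10, limma). Cyp2j6 had a log2 change of -0.19 (lower in 37 of 39, adjusted p = 8.9e-09, limma) and Cyp1b1 one of 0.18 (higher in 31 of 39, adjusted p = 0.0130, limma). Cyp1b1 did not pass in the 33 BXD/RwwJ lines alone (adjusted p = 0.0637, limma; range over its alternatives 4.5e-04 to 0.0637). Cyp2d22 had the smallest response with Cyp2u1, at 0.02 and 0.01, and Cyp2s1 did not pass (adjusted p = 0.0559, limma).

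The tissues responded in different ways in 4 of the 7, where 57.6% of the 12695 genes listed in both tissues did (limma on the within-line difference of both changes, liver less cortex). Cyp2j9 fell in liver and rose in cortex, and the difference of -1.26 (standard error 0.075, adjusted p = 2.4e-18, limma) had the same sign in 39 of 39 lines. Cyp3a13 fell in cortex, while in liver it was higher by 0.19, a change called with the block alone, and the difference of 1.05 (standard error 0.078, adjusted p = 2.5e-15, limma) also held in 39 of 39 lines. Cyp2u1 fell in liver with 0.01 in cortex (difference -0.60, standard error 0.059, adjusted p = 9.0e-12, limma, lower in liver in 36 of 39 lines). Cyp2j6 fell in cortex with 0.04 in liver (difference 0.23, standard error 0.029, adjusted p = 6.6e-09, limma, higher in liver in 35 of 39).

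**Figure D5:**
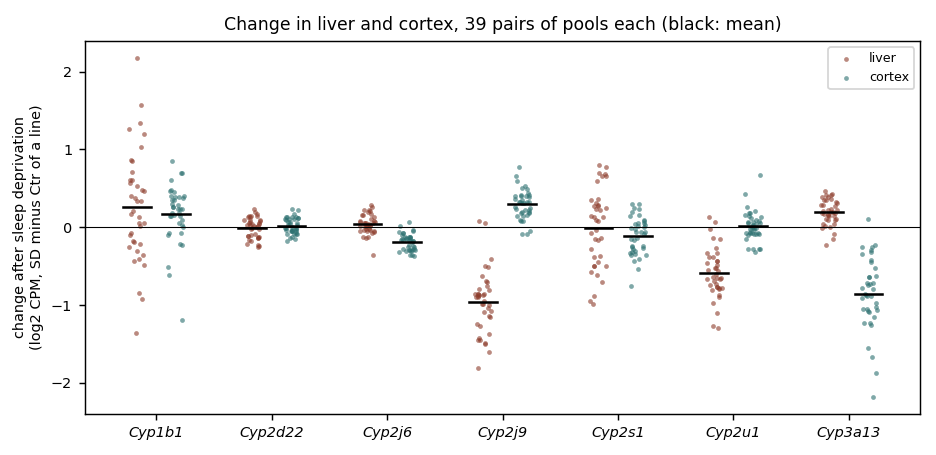
Change in log2 CPM after sleep deprivation in liver (brown) and cortex (green) for the 7 genes listed in both tissues, 39 points each with the mean in black. The means of Cyp2j9 and Cyp3a13 lie on opposite sides of 0 in the tissues, at -0.96 and 0.29 for Cyp2j9 and of 0.19 and -0.85 for Cyp3a13.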

How the data were processed

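RNA of 172 pools of cortex and liver was sequenced, and the labels give tissue, condition and line. The authors used STAR for alignment (mm9) and HTSeq for counts per gene, and deposited TMM-normalised log2 CPM values made with edgeR, with a prior count close to 1 (mean 0.999). Reads were recovered from the deposited log2 CPM, and 100% of the values came out whole within 0.02 of a read. The members and the gene lists were chosen with earlier results of these data known. Tests were run with limma 3.58.1 in R 4.3.3 (lmFit, eBayes with a variance trend) and permutations with scipy 1.17.1, and the fitting code was tested on simulated data. Adjusted p values are Benjamini-Hochberg values over all genes of a table, and errors are standard errors or standard deviations as named.

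Genes named with values are the most abundant of each subfamily, those changed after SD by at least 0.5 on the log2 scale, the 5 with the widest spread between lines, the 5 with the largest strain difference, those whose response differs between strains or tissues, and the largest and smallest responses in cortex. Others were named after their values were seen. From each list of other genes up to 3 rises and 3 falls are named.

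The Ctr and SD pools of a line come from the same inbred line. After each gene was centred within a condition, their correlation in liver was at least 0.169 (median 0.475), against -0.018 for pools of different lines, and in cortex at least 0.299 (median 0.614). The line as a replicate block was therefore fitted as an alternative. Other alternatives were median-centred libraries, quantile normalization, a prior count of 5, no variance trend, voom, a mean of at least 0 log2 CPM, all 43 pools, BXD/RwwJ lines alone, fits without BXD79, BXD85 and BXD101 (fewer mice pooled), without sublines and without each line or parental pool. Chosen after seeing the data were the library total as a covariate, relations of changes to the library total, and leaving out each line from the line effect. Promoters are RefSeq sequences of GRCm38.p6, and gene positions are those of mm9.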

Additional observations from a re-analysis of the deposited data

Results flagged for a closer look

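Responses to sleep deprivation differed between tissues in 4 of 7 genes by limma, as they did in 57.6% of the 12695 genes listed in both (change in liver minus change in cortex): -1.26 for Cyp2j9, 1.05 for Cyp3a13, -0.60 for Cyp2u1 and 0.23 for Cyp2j6.

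Between the parental strains the responses of 22 of the 49 genes differed by limma, where 7.19% of all genes did (change in D2 minus change in B6, log2). The difference was 0.51 for Cyp1a2, 0.42 for Cyp2a12 and 0.59 for Cyp2a5. In the Cyp2c cluster it was 0.43 for Cyp2c29, 0.46 for Cyp2c37, 1.85 for Cyp2c40, 0.37 for Cyp2c50, 0.46 for Cyp2c54, 0.41 for Cyp2c67, 0.40 for Cyp2c68 and 0.34 for Cyp2c70. For Cyp2d genes it was 0.39 for Cyp2d10, 0.35 for Cyp2d22, 0.41 for Cyp2d26, -0.96 for Cyp2d37-ps, 0.38 for Cyp2d40 and 0.40 for Cyp2d9. The remaining values were 0.41 for Cyp2e1, 0.47 for Cyp2f2, 0.36 for Cyp2j5, 0.43 for Cyp3a11 and 0.40 for Cyp3a25. All but Cyp2c40 and Cyp2d37-ps are dense genes, and the library totals of the strains moved in opposite directions.

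The 4 BXD/TyJ lines, which entered the comparisons only in the alternatives with all pools or lines, had Cyp2b10 above the highest of all 43 Ctr pools (4.78, itself BXD32) in the SD pools of BXD05 (4.89) and BXD32 (7.16). SD pools outside these lines also stood above 4.78, among them those of BXD90 (6.07), the DB hybrid (5.62) and DB1 (5.06). The Ctr pools of the 4 BXD/TyJ lines were checked for a value far from the others, as were their SD pools, for the 10 genes that changed after SD. In 1 of these 20 groups a pool stood apart: Cyp2u1 in Ctr was at 6.91 in BXD29t and at 6.38 to 6.42 in the other pools, a gap of 0.934 of the whole range. Chance gives about 1 such case in 20 groups.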

How the results depend on the processing

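With the line as a replicate block, 13 members rose in liver instead of 2, and 12 fell instead of 8, and in cortex 5 were called instead of 4. With the sampling period as a block, 12 members were higher in D2 instead of 14, and 21 instead of 22 differed in their response; outside the members, the line block also brought other genes of the lists past the threshold. With the library total as a covariate, chosen after seeing the data, 6 rose. Leaving out each line in turn gave 2 to 5 rises and 8 falls in liver, 4 to 5 calls in cortex and 41 to 44 line effects. The members higher in D2 numbered 14, but 9 without a variance trend, 8 in Ctr pools alone, 25 in SD pools alone, 9 with the library total as a covariate and 8 to 12 without each parental pool, while 8 instead of 10 were lower in D2 without each parental pool. The strain difference in response was called in 22 members, and in 0 without a variance trend, with the library total as a covariate and without each parental pool. The covariate also turned the sign of 11 of these 22 differences, none past the threshold: Cyp2a12 -0.08, Cyp2c29 -0.19, Cyp2c50 -0.10, Cyp2c54 -0.02, Cyp2d10 -0.08, Cyp2d26 -0.17, Cyp2d9 -0.13, Cyp2e1 -0.18, Cyp2f2 -0.05, Cyp2j5 -0.13 and Cyp3a25 -0.02. The cause was not tested. All other counts stayed within 1.5 times the main count, and no other value followed over the alternatives changed its sign. Differences between the strains that were not called were not followed in this way. Few reads limit the values of Cyp2j8, Cyp3a41a and, in D2, Cyp2c40 and Cyp2c69.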
